A study of Mus musculus with 28 samples.

Results

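Messenger RNA levels of 10 mouse genes of the Wnt signalling pathway were followed through neuronal differentiation, loss of topoisomerase IIβ (Top2β) and inhibition of topoisomerase II. The genes are the ligands Wnt1, Wnt3a, Wnt5a, Wnt7a and Wnt7b, the secreted modulators Sfrp1, Sfrp2 and Frzb, and the target genes Axin2 and Lef1. They were taken by name from a list, through probe sets whose platform annotation gives that single symbol, and all 10 had exactly 1 such probe set; together they are 10 of the 19938 genes measured. Total RNA of strain 129SvEv was hybridised to 28 Affymetrix whole-transcript arrays. Wild type and Top2β knockout cells were sampled as ES cells, as Neuronal Progenitor cells and at TN day 2 of neurons, with 2 arrays for each genotype and stage, and at TN day 6, with 3 arrays for each genotype. TN is not spelled out in the labels. In further groups, neurons at TN day 5 received DMSO or ICRF-193 (2 arrays each), and cortical glutamatergic neurons from E16.5 embryos received DMSO or ICRF-193 (3 arrays each). The labels name no genotype for these drug groups. ICRF-193 is a catalytic inhibitor that acts on both isoforms of topoisomerase II. It was used at 50 µM and, like DMSO, renewed every 24 h from TN day 2 until TN day 5. The same treatment text stands on the cortical samples, and it does not say over which days they were treated. Nor do the labels say how many knockout clones were used, or whether replicate arrays came from separate cultures or animals, so a p-value here reflects the spread among arrays, which may be technical. Because RNA came from whole cell populations, fewer cells of a type and less RNA per cell cannot be told apart in any difference given here.

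Wnt proteins are secreted, lipid-modified ligands that bind Frizzled receptors together with co-receptors such as Lrp5 and Lrp6. In the canonical branch this protects β-catenin from destruction, so that it enters the nucleus and activates genes with factors of the Tcf and Lef family. Axin2 and Lef1 are among the genes this branch switches on, and Axin2 is a scaffold of the complex that destroys β-catenin, which makes it a feedback inhibitor. Secreted Frizzled-related proteins, to which Sfrp1, Sfrp2 and Frzb belong, bind Wnt ligands outside the cell. In the embryonic nervous system Wnt1 and Wnt3a are ligands of the dorsal midline that keep progenitors dividing, Wnt7a and Wnt7b are made in the forebrain, and Wnt5a is best known for signalling that does not use β-catenin.

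Wnt1, Lef1 and Axin2 were the ligand and the targets that stood higher together in knockout cells at TN day 2, so the sequences before their transcription starts are shown. They are the 250 bases upstream of the start, from RefSeq on build GRCm38.p6, 5′ to 3′ on the strand of the gene. Capitals mark the core of the Tcf and Lef binding motif, CTTTGA or CTTTGT, on either strand, so that it also appears as TCAAAG or ACAAAG; these motifs do not overlap each other here. For Lef1 the first and the most downstream of its 4 listed starts are given.
Wnt1, chr15:98789607-98789856, plus strand: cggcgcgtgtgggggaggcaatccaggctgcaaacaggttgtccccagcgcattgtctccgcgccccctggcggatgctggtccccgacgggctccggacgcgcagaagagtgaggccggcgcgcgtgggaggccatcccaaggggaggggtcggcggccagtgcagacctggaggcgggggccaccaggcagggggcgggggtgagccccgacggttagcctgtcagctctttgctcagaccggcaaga
Axin2, chr11:108920099-108920348, plus strand: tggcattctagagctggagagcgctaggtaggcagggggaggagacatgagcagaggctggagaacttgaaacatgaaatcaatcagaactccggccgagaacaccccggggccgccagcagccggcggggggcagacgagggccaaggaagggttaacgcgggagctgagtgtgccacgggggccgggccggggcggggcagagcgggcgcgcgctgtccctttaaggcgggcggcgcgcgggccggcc
Lef1 start 1, chr3:131110047-131110296, plus strand: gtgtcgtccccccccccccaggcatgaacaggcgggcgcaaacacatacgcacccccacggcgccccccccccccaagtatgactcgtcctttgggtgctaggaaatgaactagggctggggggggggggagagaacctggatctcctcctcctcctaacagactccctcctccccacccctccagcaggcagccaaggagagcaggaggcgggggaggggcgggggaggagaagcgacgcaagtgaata
Lef1 start 4, chr3:131156044-131156293, plus strand: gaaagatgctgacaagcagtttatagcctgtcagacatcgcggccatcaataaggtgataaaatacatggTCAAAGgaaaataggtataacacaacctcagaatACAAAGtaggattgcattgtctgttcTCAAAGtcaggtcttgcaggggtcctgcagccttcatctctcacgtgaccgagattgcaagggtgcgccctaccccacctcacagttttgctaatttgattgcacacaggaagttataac
The windows of Wnt1, of Axin2 and of the first Lef1 start held no match. The window of Lef1 start 4 held 2 matches of CTTTGA and 1 of CTTTGT. RefSeq windows were at hand for 7 of the 10 genes, with 10 starts between them, and 2 of those 10 starts held a match: Lef1 start 4 and the start of Frzb, with 1 match of CTTTGA. Over all 32851 starts of the table, 13.8% held CTTTGA and 27.6% held CTTTGA or CTTTGT. A match is a description of these letters, not of bound protein, and the arrays do not separate the starts of Lef1.

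The label of each stage was set against its markers. Pou5f1, the pluripotency factor, had a mean log2 value of 11.27 in wild type ES cells and at most 5.30 in the wild type or DMSO groups of the later stages. Pax6, a progenitor factor, peaked at 10.44 in wild type Neuronal Progenitor cells, and the neuronal tubulin Tubb3 stood at 11.66 at TN day 2. Neurod6, a marker of cortical glutamatergic neurons, was at 10.55 in cortical DMSO cells and at 3.41 to 4.75 in the wild type and DMSO groups of TN neurons. The GABAergic enzyme Gad1 also stood at 10.39 in cortical DMSO cells and the astrocyte channel Aqp4 at 6.50, so markers of other cell types were present in these preparations. In the wild type and DMSO groups of TN neurons Gad1 was high as well, at 9.27 to 10.12, and Aqp4 stood at 4.33 to 4.73. The glutamate transporter Slc17a6 was at 7.25, 9.93 and 10.45 in these groups at TN days 2, 5 and 6, and at 9.59 in cortical DMSO cells. Slc17a7 and Tbr1 were lower in these TN groups, at 5.49 to 5.85 and 5.10 to 5.35, than in cortical DMSO cells, at 7.65 and 10.14. Markers of glutamatergic and of GABAergic neurons thus stood side by side in TN neurons. Top2b, the targeted gene, was lower in every knockout array than in every wild type array of its stage, for example 8.99 and 8.94 against 11.40 and 11.35 at TN day 2. Whether its probe set lies inside the deleted part is not known. Pairs of arrays of a group correlated at 0.984 to 0.996 over genes, except the knockout ES pair at 0.974. Knockout ES array 1 had a mean of 9.89 over 12 mesenchymal genes, against 7.80 to 8.04 in the other ES arrays, and wild type TN day 2 array 1 had 7.02 where array 2 had 8.64. Where a call on the 10 genes was gained or lost without either of these arrays, that value is given beside it.

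**Figure D1:**
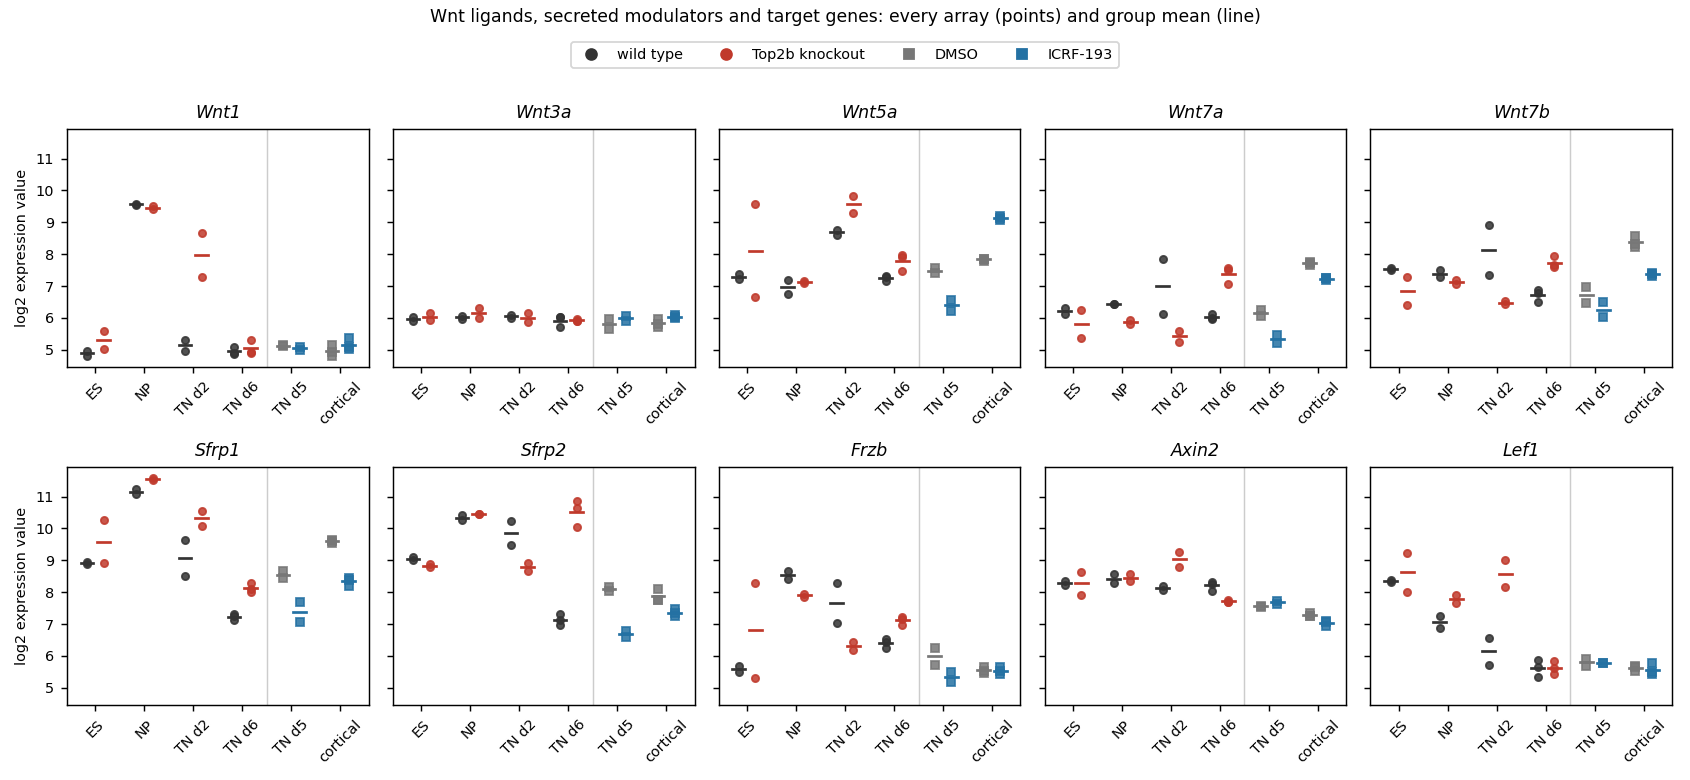
Log2 expression value (vertical axis) of each of the 10 genes in every array, by stage or preparation (horizontal axis). Points are arrays and short lines are group means, with wild type, Top2β knockout, DMSO and ICRF-193 in separate colours; values of different genes are not comparable, because their probes differ. Wnt1 is near 9.5 in both genotypes of progenitors and above 7 in knockout arrays at TN day 2, and lies between 4.8 and 5.6 in all other groups.

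Across the 12 groups the ligands had very different ranges. Wnt1 was a gene of the progenitor stage: wild type Neuronal Progenitor cells had a mean of 9.57, knockout progenitors 9.46 and knockout TN day 2 cells 7.98, and these groups did not overlap each other or the next one. The other 9 groups lay between 4.89 and 5.30, and each of the 8 neighbouring pairs among them overlapped. Wnt3a moved little: its group means spanned 0.35, from 5.80 to 6.15, and all 11 neighbouring pairs overlapped. Wnt5a had its highest mean, 9.57, in knockout TN day 2 cells, followed by ICRF-193-treated cortical neurons at 9.13 and wild type TN day 2 cells at 8.69, and its lowest, 6.40, in neurons treated with ICRF-193 at TN day 5. Of its 11 neighbouring pairs, 6 overlapped.

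Wnt7a and Wnt7b followed each other. Both were highest in DMSO-treated cortical neurons, at 7.71 and 8.37, and lowest in ICRF-193-treated neurons of TN day 5, at 5.33 and 6.25. Neighbours in their order were mostly not separated, since 8 of 11 pairs overlapped for each of these genes.

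Among the secreted modulators, Sfrp1 was highest in progenitors, with means of 11.55 in knockout and 11.16 in wild type cells, then 10.31 in knockout TN day 2 cells. Its lowest group was wild type TN day 6, at 7.23, and 5 of its 11 neighbouring pairs overlapped. Sfrp2 had its top mean, 10.50, in knockout neurons at TN day 6, which overlapped knockout progenitors at 10.45; wild type neurons at TN day 6 were next to last, at 7.14. For Sfrp2, 4 neighbouring pairs overlapped. Frzb peaked at 8.53 in wild type progenitors, and 9 of its neighbouring pairs overlapped.

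Of the target genes, Axin2 had its highest mean, 9.03, in knockout TN day 2 cells, with no overlap with the next group. The groups from knockout progenitors at 8.46 to wild type TN day 2 at 8.14 then formed a run in which every neighbour overlapped, and cortical neurons were lowest, at 7.28 with DMSO against 7.03 with ICRF-193. Lef1 was highest in ES cells of either genotype and in knockout TN day 2 cells, at 8.62, 8.58 and 8.35 for knockout ES, knockout TN day 2 and wild type ES cells. Those 3 groups overlapped in turn. Below progenitors, at 7.78 and 7.07, came wild type TN day 2 cells at 6.15 and the TN day 5, TN day 6 and cortical groups, which ended at 5.57 and all overlapped their neighbours.

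In wild type cells, the step from ES cells to progenitors raised a ligand and all 3 secreted modulators and lowered Lef1. Wnt1 read 4.80 and 4.97 in ES cells and 9.59 and 9.55 in progenitors, a rise of 4.68 ± 0.27 (standard error, as after every ± here) on the log2 scale (limma adjusted p = 1.01e-11, by Benjamini-Hochberg over all 19938 genes). Frzb went from 5.68 and 5.50 to 8.66 and 8.41, which is a rise of 2.94 ± 0.52 (limma adjusted p = 7.71e-05). In Sfrp1 the values of 8.90 and 8.94 became 11.23 and 11.08, a rise of 2.24 ± 0.32 (limma adjusted p = 5.03e-06). Arrays of the 2 stages did not overlap for any of these genes. Sfrp2 stood at 9.01 and 9.10 and then at 10.41 and 10.26, and rose by 1.28 ± 0.21 (limma adjusted p = 4.34e-05). Lef1, at 8.39 and 8.32 in ES cells and 7.24 and 6.89 in progenitors, fell by 1.29 ± 0.31 (limma adjusted p = 0.00155). With these, 5 of the 10 genes passed an adjusted p of 0.05, 4 as higher and 1 as lower, beside 46.3% of all genes (21.7% higher and 24.5% lower), so their share was near the background of this step. Differences of the others, none of which passed, were 0.05 for Wnt3a, -0.32 for Wnt5a, 0.22 for Wnt7a, -0.14 for Wnt7b and 0.15 for Axin2. The ES values of Wnt1 are among the lowest of these arrays, under the 30th percentile of gene means at 5.56, so no fold is given for it.

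From progenitors to TN day 2 Wnt1 fell and Wnt5a rose in wild type cells. Wnt1 read 4.97 and 5.31 at TN day 2 and fell by 4.43 ± 0.27 (limma adjusted p = 1.28e-11), back to the range of ES cells. Sfrp1 came down to 8.50 and 9.63, a fall of 2.09 ± 0.32 (limma adjusted p = 7.95e-06). Lef1, now at 5.72 and 6.57, fell by 0.92 ± 0.31 (limma adjusted p = 0.0166), but without wild type TN day 2 array 1 its difference was -0.50 (adjusted p = 0.292) and without wild type progenitor array 1 it was -0.74 (adjusted p = 0.124). Wnt5a, at 7.19 and 6.76 in progenitors, reached 8.61 and 8.77, a rise of 1.71 ± 0.48 (limma adjusted p = 0.00535; 0.0547 without wild type progenitor array 2). These 4 of 10 genes, 1 higher and 3 lower, stand beside 48.2% of all genes that passed in this step (21.6% higher and 26.6% lower). Wnt7a and Wnt7b did not pass, and their wild type TN day 2 arrays lay far apart, at 7.84 and 6.13 for Wnt7a and 8.91 and 7.34 for Wnt7b; array 1 was the higher for both. Their differences were 0.55 and 0.73, and on array 1 alone, without array 2, 1.40 (adjusted p = 7.19e-05) and 1.52 (adjusted p = 8.49e-05). Sfrp2 differed by -0.49 (limma adjusted p = 0.0688), and without wild type TN day 2 array 1 by -0.86 (adjusted p = 0.00371), or by -0.53 after quantile normalization (adjusted p = 0.0446). Frzb differed by -0.87 (limma adjusted p = 0.186; 0.0282 with no arrays of other groups in the fit and 0.0465 under array weights), Wnt3a by 0.03 and Axin2 by -0.29.

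Between TN day 2 and TN day 6 wild type neurons lowered 5 of the 10 genes and raised none that passed the test, where 28.5% of all genes passed and 11.9% passed as lower. Sfrp2 went from 10.23 and 9.47 to 7.14, 7.30 and 6.97 and fell by 2.71 ± 0.20 (limma adjusted p = 1.76e-09). Sfrp1, at 7.26, 7.30 and 7.14 on TN day 6, fell by 1.83 ± 0.29 (limma adjusted p = 4.51e-05). Wnt5a came to 7.30, 7.28 and 7.17, a fall of 1.44 ± 0.44 (limma adjusted p = 0.0177; 0.0686 or 0.102 without wild type TN day 2 array 1 or 2). Neither modulator overlapped between the days. Wnt7b fell by 1.42 ± 0.30 (limma adjusted p = 0.000889) and Wnt7a by 0.96 ± 0.30 (limma adjusted p = 0.0186), and both rested on wild type TN day 2 array 1: without it the differences were -0.63 (adjusted p = 0.0902) and -0.11 (adjusted p = 0.808). Axin2, at 8.08 and 8.20 and then 8.05, 8.32 and 8.27, did not pass in any of the wild type steps. Lef1 differed by -0.53 (limma adjusted p = 0.172), and without wild type TN day 2 array 1 by -0.95 (adjusted p = 0.0442). For Frzb the difference of -1.26 missed the threshold (limma adjusted p = 0.0516), and 5 of its alternatives passed it, with adjusted p of 0.000925 to 0.0423. Wnt1 and Wnt3a differed by -0.18 and -0.14.

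The first question of the design is how knockout cells compared with wild type cells of the same stage. In ES cells none of the 10 genes passed the test, 0 of 10 beside 0.351% of all genes by limma, and 2 had an unadjusted p under 0.05. For 3 of the 10 genes the arrays of the genotypes did not overlap, as for 32.5% of all genes. These were Sfrp2 (-0.22), Wnt1 (0.41) and Wnt7b (-0.67), and Wnt3a, Wnt7a and Axin2 differed by 0.06, -0.40 and 0.00. The knockout pair itself was split: array 1 read 8.29 for Frzb, 9.58 for Wnt5a and 10.25 for Sfrp1, and array 2 read 5.32, 6.64 and 8.91, while wild type arrays lay at 5.50 to 5.68, 7.22 to 7.37 and 8.90 to 8.94. Array 1 is the ES array with the high mesenchymal genes. Without knockout array 2, so on array 1 alone, Frzb (2.70), Wnt5a (2.28), Sfrp1 (1.33) and Lef1 (0.88) passed as higher and Wnt7b (-1.11) as lower, and without array 1 none of the 10 genes passed. The part of the mesenchymal signal in these values was not tested.

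In Neuronal Progenitor cells, again 0 of 10 genes passed by limma, beside 0.627% of all genes, and 1 had an unadjusted p under 0.05. That gene was Lef1, at 7.24 and 6.89 in wild type against 7.66 and 7.91 in knockout cells, with a difference of 0.72 ± 0.31 (limma adjusted p = 0.555). Arrays did not overlap for 7 of the 10 genes, beside 38.1% of all genes, and the differences of those 7 ran from -0.64 for Frzb to 0.72 for Lef1. Between these lay Wnt7a (-0.57), Wnt7b (-0.25), Wnt1, Sfrp2 (0.12) and Sfrp1 (0.39). The genes with overlap were Wnt3a, Wnt5a and Axin2, at 0.12, 0.15 and 0.03. Wnt1 read 9.59 and 9.55 in wild type against 9.41 and 9.52 in knockout progenitors, a difference of -0.10 whose 95% confidence interval ran from -0.67 to 0.46. The change of the knockout difference from ES cells to progenitors passed for 0 of the 10 genes by limma, beside 0.256% of all genes, and 1 gene, Frzb (-1.85), had an unadjusted p under 0.05. The changes of the other genes lay between -0.66 for Wnt5a and 0.45 for Lef1. Without knockout ES array 2, so against ES array 1 with its high mesenchymal genes, the change was -3.33 for Frzb (adjusted p = 4.2e-06) and -2.13 for Wnt5a (adjusted p = 8.3e-06). Beside these values, 1 of 11 endothelial and mural genes, Cldn5, passed as higher in knockout progenitors, and array means over that list were 7.35 to 7.37 against 6.59 to 6.73 in wild type, with a median difference of 0.73. Its part in the values of the 10 genes was not tested.

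At TN day 2, 7 of the 10 genes differed between the genotypes. Wnt1, Lef1, Axin2 and Sfrp1 were higher in knockout cells, and Sfrp2, Wnt7a and Wnt7b were lower. Over all genes 11.5% passed, 5.49% as higher and 5.97% as lower, and arrays did not overlap for 9 of the 10 genes, beside 51.7% of all genes. The median difference of the 10 genes was 0.42, that of all genes -0.04.

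The ligand Wnt1 showed the largest of these differences. Wild type cells, at 4.97 and 5.31, were in the low range that Wnt1 had in ES cells and at TN day 6, while knockout arrays read 7.29 and 8.67. Both knockout arrays lay below the 9.41 and 9.52 of knockout progenitors and above every wild type array. The difference was 2.84 ± 0.27 (limma adjusted p = 1e-06), and by p-value Wnt1 was gene 17 of all 19938. This standard error is set by the spread over all 12 groups, most of them low and close together for Wnt1, whereas the knockout pair itself had a standard deviation of 0.97. Over the alternative settings the difference ran from 2.16 to 3.53. Wnt5a read 8.61 and 8.77 in wild type against 9.31 and 9.83 in knockout cells, without overlap, but its difference of 0.88 ± 0.48 did not pass (limma adjusted p = 0.295; 0.0378 with array weights). Wnt3a, at 6.05 and 6.01 on average in wild type and knockout cells, differed by -0.05 ± 0.14.

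Wnt7a read 7.84 and 6.13 in wild type against 5.60 and 5.25 in knockout cells, a difference of -1.56 ± 0.33 (limma adjusted p = 0.0032). Wnt7b, at 8.91 and 7.34 against 6.53 and 6.42, differed by -1.65 ± 0.33 (limma adjusted p = 0.00198). The genotypes did not overlap for either gene, but the size came largely from wild type array 1: without it the differences were -0.71 (adjusted p = 0.132) and -0.86 (adjusted p = 0.0892). Without knockout array 2 that of Wnt7a was -1.39 (adjusted p = 0.0766).

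Both target genes were higher. Lef1 read 5.72 and 6.57 in wild type against 8.16 and 9.01 in knockout cells, which is at the level of ES cells; the difference was 2.44 ± 0.31, or 5.42-fold (limma adjusted p = 2.51e-05). Axin2 went from 8.08 and 8.20 to 8.80 and 9.27, a difference of 0.90 ± 0.17, or 1.86-fold (limma adjusted p = 0.00153; 0.0788 without knockout array 2). Knockout array 2 was the higher knockout array for Wnt1, Lef1 and Axin2, and array 1 of the wild type was the lower wild type array for each. Wnt1 and Lef1 passed under all 11 alternative settings of this comparison.

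Of the secreted modulators, Sfrp1 was higher, at 10.07 and 10.56 against 8.50 and 9.63, by 1.25 ± 0.32 (limma adjusted p = 0.0119), and without wild type array 1 by 0.68 (adjusted p = 0.356). Without knockout array 2 the difference of Sfrp1 was 1.01 (adjusted p = 0.199). Sfrp2 was lower, at 8.65 and 8.91 against 10.23 and 9.47, with a difference of -1.07 ± 0.21 (limma adjusted p = 0.00238), and without wild type array 1 it was -0.69 (adjusted p = 0.11). Frzb read 8.29 and 7.05 in wild type against 6.43 and 6.17 in knockout cells, without overlap, and its difference of -1.37 ± 0.52 did not pass (limma adjusted p = 0.0996; 0.00719 with array weights), while without wild type array 2 it was -1.99 (adjusted p = 0.0373). Leaving out wild type array 1 left 3 of the 10 genes past the test, Wnt1, Lef1 and Axin2, and a fit of only these 4 arrays left 2, Wnt1 and Lef1.

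Other cell-state genes differed alongside. Of 15 cell cycle genes 6 passed as higher and 0 as lower in knockout cells at TN day 2, and array means over the list were 8.65 to 8.91 in wild type and 9.33 to 9.36 in knockout cells. Of 13 pan-neuronal genes 8 passed as lower and 0 as higher, with array means of 10.79 to 10.85 against 10.16 to 10.44. Over 14 neural progenitor genes the wild type pair was split, with array means of 8.25 and 8.86, and the knockout arrays lay between them, at 8.37 to 8.49. Of 12 mesenchymal genes 3 passed as higher, with array means of 7.02 to 8.64 against 8.63 to 8.93. Of 15 genes of the dorsal neural tube, a site where Wnt1 is normally made, 3 passed as higher and 2 as lower. Array means over that list were 6.73 to 6.76 in wild type and 6.92 to 7.18 in knockout cells. Over 9 midbrain-hindbrain genes they were 6.805 to 6.863 in wild type and 6.57 to 6.608 in knockout cells. The part of these shifts in the differences of the 10 genes was not tested.

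**Figure D2:**
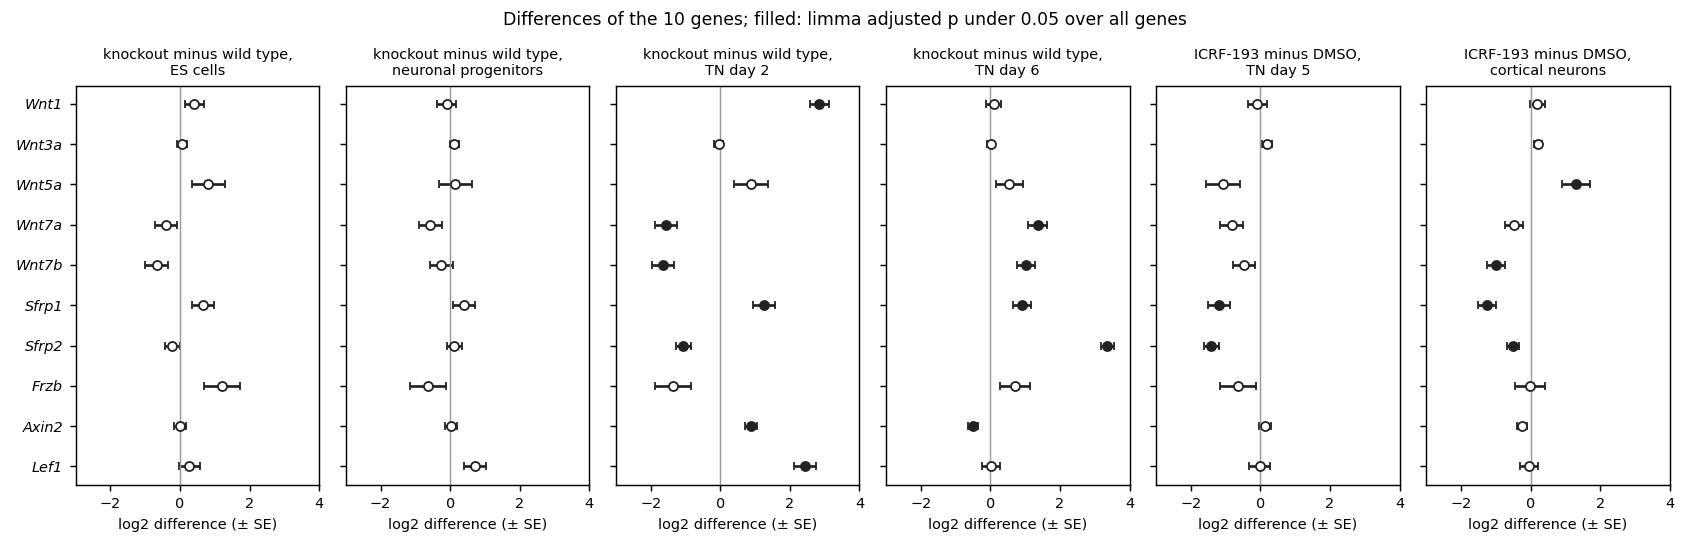
Log2 differences of the 10 genes (horizontal axis, points with ± 1 standard error) in the 6 comparisons of knockout with wild type and of ICRF-193 with DMSO; filled points passed a limma adjusted p of 0.05 over all genes. No gene is filled in ES cells or progenitors, 7 are at TN day 2, 5 at TN day 6, 2 at TN day 5 and 4 in cortical neurons.

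At TN day 6 the picture had turned for most of these genes. Sfrp2, Wnt7a, Wnt7b and Sfrp1 were higher in knockout neurons and Axin2 was lower, 5 of 10 genes beside 10.2% of all genes (5.38% higher and 4.8% lower). Wnt1 and Lef1, the genes with the largest differences at TN day 2, were at the low level of the wild type. The median difference of the 10 genes was 0.63, and that of all genes 0.00.

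Sfrp2 led the list. Wild type neurons read 7.14, 7.30 and 6.97 and knockout neurons 10.63, 10.85 and 10.03, so that the genotypes were more than 2 log2 units apart at their closest arrays. The difference of 3.36 ± 0.18, or 10.3-fold (limma adjusted p = 2.53e-11), ranked 8 of all genes by p-value. Sfrp1 was higher too, at 8.11, 8.29 and 8.0 against 7.26, 7.30 and 7.14, by 0.90 ± 0.26 (limma adjusted p = 0.026; 0.0586 to 0.113 in 5 of 6 fits that left out 1 array, all but that without knockout array 3). Frzb, at 7.22, 6.97 and 7.16 against 6.44, 6.53 and 6.25, had no overlap, and its difference of 0.71 ± 0.43 did not pass (limma adjusted p = 0.398). In a fit of only these 6 arrays Frzb passed, with an adjusted p of 0.00253, and with array weights it was 0.00943.

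Among ligands, Wnt7a read 6.01, 5.95 and 6.11 in wild type against 7.51, 7.57 and 7.07 in knockout neurons, a difference of 1.36 ± 0.27 (limma adjusted p = 0.00138). Wnt7b, at 6.50, 6.77 and 6.86 against 7.66, 7.93 and 7.61, differed by 1.03 ± 0.27 (limma adjusted p = 0.0129; 0.072 without knockout array 2 and 0.0698 without wild type array 1). For both genes every knockout array was above every wild type array. Wnt1, with 4.88, 5.09 and 4.89 in wild type against 4.93, 5.31 and 4.91 in knockout neurons, differed by 0.10, and the 95% confidence interval of -0.36 to 0.55 lay below the difference at TN day 2. Wnt5a, at 7.30, 7.28 and 7.17 against 7.92, 7.99 and 7.48, differed by 0.54 ± 0.40 and did not pass (limma adjusted p = 0.526; 0.027 in a fit of only these 6 arrays and 0.0123 with array weights). Wnt3a differed by 0.00.

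Of the targets, Axin2 read 8.05, 8.32 and 8.27 in wild type against 7.69, 7.75 and 7.70 in knockout neurons. Its difference was -0.50 ± 0.14 (limma adjusted p = 0.0217; 0.0558 to 0.102 in 5 of 6 fits that left out 1 array, all but that without wild type array 1). Lef1 read 5.34, 5.65 and 5.86 and 5.44, 5.83 and 5.61, and the interval of its difference ran from -0.51 to 0.53. Sfrp2 and Wnt7a passed under all 13 alternative settings. Beside these values, 14 of 15 cell cycle genes passed as higher in knockout neurons at TN day 6, with array means of 7.34 to 7.87 against 6.59 to 6.75 in wild type. Of 14 neural progenitor genes, 8 passed as higher and 0 as lower, with array means of 7.97 to 8.33 against 7.23 to 7.39. Of 9 astrocyte genes 2 passed as higher, and the list's array means were 6.91 to 7.14 against 6.56 to 6.61. Their part in the differences of the 10 genes was not tested.

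The change of the knockout difference from TN day 2 to TN day 6 was tested itself, and 6 of the 10 genes passed, 3 upward and 3 downward, beside 4.8% of all genes (2.71% upward and 2.09% downward). Sfrp2 went from -1.07 to 3.36, a change of 4.43 ± 0.28 (limma adjusted p = 3.62e-09) that ranked 2 of all genes by p-value. Wnt7a changed by 2.92 ± 0.42 (limma adjusted p = 0.00024) and Wnt7b by 2.67 ± 0.42 (limma adjusted p = 0.000511), so these 3 genes moved from lower to higher in knockout cells. Wnt1 changed by -2.75 ± 0.35 (limma adjusted p = 5.9e-05), Lef1 by -2.43 ± 0.40 (limma adjusted p = 0.000779) and Axin2 by -1.40 ± 0.22 (limma adjusted p = 0.000538). Each of the 6 kept its call without any 1 of the arrays. In Sfrp1, higher in knockout cells on both days, the change of -0.35 had an interval of -1.20 to 0.50. Frzb changed by 2.08 ± 0.67 and did not pass (limma adjusted p = 0.0806; 0.0158 with no arrays of other groups in the fit and 0.00119 under array weights), while without wild type TN day 2 array 2 its change was 2.70 (adjusted p = 0.0285). For Wnt3a and Wnt5a the values were 0.05 and -0.34, and neither passed.

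**Figure D3:**
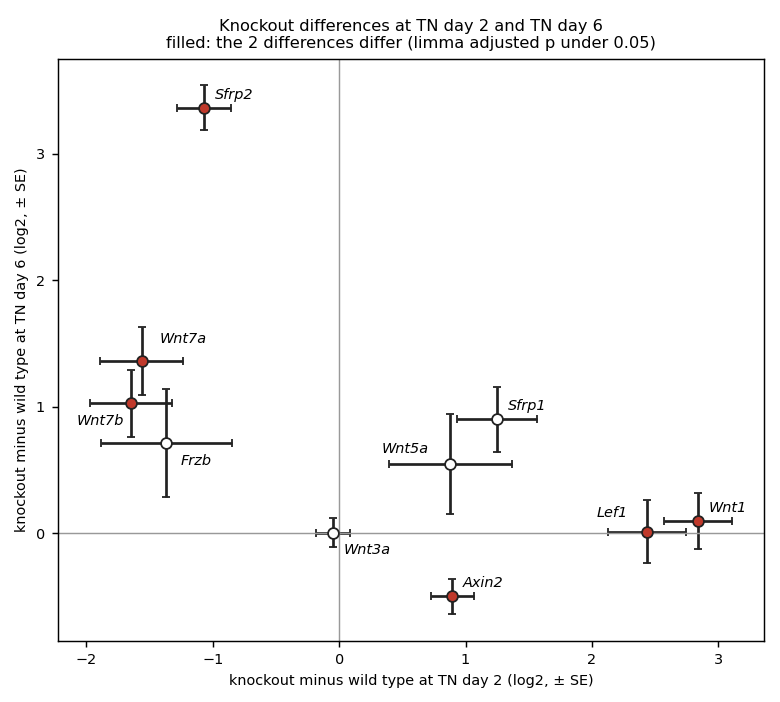
Knockout minus wild type difference of each of the 10 genes at TN day 2 (horizontal axis) and TN day 6 (vertical axis), both in log2 units with ± 1 standard error. Filled points are the 6 genes whose differences changed between the days by limma's test; Sfrp2 lies at -1.07 and 3.36, Wnt1 at 2.84 and 0.10.

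Between progenitors and TN day 2 the knockout difference changed for 3 of the 10 genes, 2 upward and 1 downward, beside 2.71% of all genes (1.38% upward and 1.33% downward). It changed by 2.95 ± 0.38 for Wnt1 (limma adjusted p = 0.000261), by 1.72 ± 0.43 for Lef1 (limma adjusted p = 0.0356) and by -1.18 ± 0.30 for Sfrp2 (limma adjusted p = 0.0389). Wnt1 passed without any 1 of the 8 arrays, whereas Sfrp2 passed in 1 of these fits and Lef1 in 2 of them. Without wild type TN day 2 array 1 the change of Sfrp2 was -0.80 (adjusted p = 0.272) and that of Lef1 1.30 (adjusted p = 0.236). Axin2, at 0.87 ± 0.24, missed the threshold (limma adjusted p = 0.0578) and passed under 6 alternatives, with adjusted p of 0.0149 to 0.0466. Wnt7a (-0.99) and Wnt7b (-1.39) passed without wild type TN day 2 array 2, at -1.85 and -2.18, and not with it. Sfrp1, Frzb, Wnt3a and Wnt5a, at 0.86, -0.73, -0.17 and 0.73, did not pass. This test and the preceding one share the 4 TN day 2 arrays.

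The second question of the design is how neurons treated with the inhibitor compared with neurons given DMSO. At TN day 5, 2 of the 10 genes were lower with ICRF-193, both secreted modulators, beside 8.89% of all genes (6.37% lower). Sfrp2 read 8.03 and 8.16 with DMSO against 6.59 and 6.78 with ICRF-193, a difference of -1.41 ± 0.21, or 2.66-fold lower (limma adjusted p = 0.000145), and it passed under all 11 alternative settings. Sfrp1 read 8.44 and 8.65 and then 7.68 and 7.05, a difference of -1.18 ± 0.32 (limma adjusted p = 0.0218). Without DMSO array 2 the adjusted p of Sfrp1 was 0.175, and without ICRF-193 array 2 it was 0.14. The median difference of the 10 genes was -0.56, that of all genes 0.02.

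None of the ligands passed at TN day 5. Wnt5a, at 7.42 and 7.55 with DMSO against 6.57 and 6.23 with ICRF-193, differed by -1.08 ± 0.48 (limma adjusted p = 0.177; 0.0196 in a fit of only these 4 arrays). Wnt7a, at 6.06 and 6.26 and then 5.46 and 5.21, differed by -0.83 ± 0.33 (limma adjusted p = 0.123). Both genes had no overlap between treatments, as was so for 7 of the 10 genes. Between pairs of 2 arrays this is common: at TN day 2 it held for 51.7% of all genes between the genotypes. Wnt7b, Wnt3a and the modulator Frzb differed by -0.47, 0.19 and -0.66. Wnt1 read 5.12 and 5.14 with DMSO against 5.10 and 4.99 with ICRF-193. Axin2 differed by 0.13 and Lef1 by -0.02, with intervals of -0.23 to 0.48 and -0.66 to 0.61. An increase of Lef1 as large as that of knockout cells at TN day 2 lay outside the interval, but the days differ. At TN day 6, the nearer day, the knockout difference of Lef1 was 0.01, with an interval of -0.51 to 0.53. Of 15 cell cycle genes 12 passed as lower, with array means of 6.92 to 7.53 with DMSO and 6.26 to 6.41 with ICRF-193. Of 14 progenitor genes 6 passed as lower, with array means of 7.32 to 7.90 against 6.32 to 6.34. Their part in the fall of Sfrp1 and Sfrp2 was not tested.

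In cortical neurons, Sfrp1, Sfrp2 and Wnt7b were lower with ICRF-193 and Wnt5a was higher, 4 of the 10 genes beside 23.4% of all genes (9.72% higher and 13.7% lower). The median difference of the 10 genes was -0.15, that of all genes 0.04. Sfrp1 read 9.63, 9.60 and 9.55 with DMSO against 8.43, 8.20 and 8.38 with ICRF-193, a difference of -1.25 ± 0.26, or 2.39-fold lower (limma adjusted p = 0.00117). Wnt7b, at 8.22, 8.31 and 8.57 against 7.31, 7.39 and 7.41, differed by -0.99 ± 0.27 (limma adjusted p = 0.00928). Both passed under all 13 alternative settings, and neither overlapped between treatments.

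Sfrp2 showed a smaller difference, at 7.77, 7.75 and 8.09 with DMSO against 7.48, 7.35 and 7.24 with ICRF-193. It was -0.52 ± 0.18 (limma adjusted p = 0.0381; 0.0885 after quantile normalization and 0.0507 to 0.164 in each fit that left out 1 array). Wnt5a read 7.85, 7.80 and 7.85 with DMSO against 9.07, 9.15 and 9.19 with ICRF-193, so its arrays lay within 0.2 of each other in each group and more than 1 apart between groups. The difference was 1.30 ± 0.40, or 2.46-fold (limma adjusted p = 0.0211), and leaving out 1 array gave an adjusted p of 0.0525 to 0.0586 in 5 of 6 fits, all but that without ICRF-193 array 1. The standard error of Wnt5a is set by its spread over all groups, among them the split ES pair with 9.58 and 6.64. Wnt7a, at 7.67, 7.75 and 7.73 and then 7.25, 7.19 and 7.26, did not overlap and did not pass (-0.48 ± 0.27, limma adjusted p = 0.205; 0.000463 in a fit of only these 6 arrays and 0.0174 with array weights). Axin2, at 7.34, 7.24 and 7.26 against 7.09, 7.05 and 6.93, differed by -0.25 ± 0.14 (limma adjusted p = 0.205; 0.0178 in that smaller fit and 0.0228 with array weights). Lef1, Frzb, Wnt1 and Wnt3a differed by -0.05, -0.01, 0.20 and 0.20, and none of them passed.

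Markers of other cells moved strongly in this comparison. Of 9 astrocyte genes 8 passed as lower with ICRF-193, and array means fell from 8.26 to 8.42 with DMSO to 6.67 to 6.72. All 15 measured cell cycle genes passed as lower (7.71 to 7.75 against 6.34 to 6.37), as did 8 of 14 progenitor genes, with 1 higher, and 4 of 7 oligodendrocyte lineage genes. Of 10 microglial genes 9 passed as higher, with array means of 6.29 to 6.43 against 6.96 to 7.09. The part of these shifts in the differences of Sfrp1, Sfrp2, Wnt7b and Wnt5a was not tested.

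Whether the inhibitor acted differently in the 2 preparations was tested as the difference of the effects, and 1 of the 10 genes passed, beside 4.37% of all genes (1.69% with a positive difference). It was Wnt5a, with an effect of -1.08 at TN day 5 and 1.30 in cortical neurons and a difference of 2.39 ± 0.62 (limma adjusted p = 0.0285). The difference did not pass in any of the 10 fits that left out 1 array, with adjusted p of 0.0513 to 0.0937. For Sfrp1 the effects of -1.18 and -1.25 differed by -0.08, with an interval of -0.92 to 0.77. Sfrp2 differed by 0.90 ± 0.28 between preparations and did not pass (limma adjusted p = 0.0764; 0.0121 in a fit of only the arrays compared and 0.0165 after quantile normalization). Differences of the other genes ran from -0.53 for Wnt7b to 0.65 for Frzb.

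The rest of the pathway was described by 8 lists of other Wnt genes by role, with 110 symbols, of which 106 were measured. In ES cells 0 of the 106 genes passed as higher and 1 as lower in the knockout, or 0.943% beside 0.351% of all genes. That was the ligand Wnt8a, at -1.11 ± 0.17 (limma adjusted p = 0.00342; passed under 7 of 11 alternative settings and in neither fit without a wild type array). In progenitors 4 passed as higher and 0 as lower, 3.77% beside 0.627% of all genes: the ligands Wnt2b (1.32 ± 0.22) and Wnt4 (0.92 ± 0.12), the receptor Fzd4 (1.15 ± 0.26) and the R-spondin Rspo1 (0.88 ± 0.17), a secreted enhancer of Wnt signalling. Of these, Wnt4 passed under all 12 alternative settings, Wnt2b under 10, Rspo1 under 9 and Fzd4 under 7; Fzd4 (limma adjusted p = 0.0473) did not pass without any 1 of the 4 arrays.

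At TN day 2, 24 of the 106 genes passed as higher in knockout cells and 6 as lower, 28.3% beside 11.5% of all genes, and the median difference was 0.02 where that of all genes was -0.04. By direction, 5.49% of all genes passed as higher and 5.97% as lower, so the share of the 6 lower genes was near the background. Receptors were higher in 6 of 16 cases, led by Fzd4 (2.02 ± 0.26, limma adjusted p = 3.74e-05), and lower in 1, Fzd3 (-0.48 ± 0.14). Secreted inhibitors were higher in 5 of 15 cases, among them Dkk2 (2.02 ± 0.45), which blocks the Lrp co-receptors. The ligand Wnt2b, one of 2 ligands of 14 that passed, was higher by 2.00 ± 0.22 (limma adjusted p = 7.78e-06). Feedback and target genes were higher in 9 of 22 cases, with Tnfrsf19 first (1.82 ± 0.22, limma adjusted p = 1.61e-05), and lower in 1, Sp8 (-0.86 ± 0.19). Of 17 cytoplasmic transducers 0 passed as higher and 4 as lower, among them Apc2 (-0.65 ± 0.15), Apc (-0.52 ± 0.11) and Csnk1e (-0.40 ± 0.13), of which the first pair belong to the destruction complex. The glypican Gpc3, a surface proteoglycan that binds Wnt ligands, was higher by 1.72 ± 0.39. Of the 11 alternative settings, Fzd4 and Wnt2b passed under all, Tnfrsf19 under 10, Apc under 9, Dkk2, Gpc3, Sp8, Apc2 and Fzd3 under 8 and Csnk1e (limma adjusted p = 0.0464) under 6. Without wild type array 1 none of Dkk2, Gpc3, Sp8, Apc2, Fzd3 and Csnk1e passed. A fit of only the 4 arrays left 2 of the 106 genes past the test, and leaving out knockout array 2 left 7.

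At TN day 6, 16 of the 106 genes passed as higher in knockout neurons and 4 as lower, 18.9% beside 10.2% of all genes. By direction, 5.38% of all genes passed as higher and 4.8% as lower, so the share of the 4 lower genes was near the background. Ccnd1, the cyclin that drives entry into the cell cycle and a target of β-catenin in many tissues, was higher by 2.05 ± 0.17 (limma adjusted p = 2.59e-08). Fzd7, a receptor, was higher by 1.68 ± 0.19 (limma adjusted p = 3.05e-06), Gpc3 by 1.62 ± 0.32 and Sp8, now in the opposite direction to TN day 2, by 1.05 ± 0.15. Gpc4, a related glypican, was higher by 0.93 ± 0.27 (limma adjusted p = 0.0284), and passed in 1 of the 6 fits that left out 1 array. Lower in the knockout were Fzd10 (-0.83 ± 0.17), the co-repressor Tle4 (-0.65 ± 0.12), the secreted inhibitor Draxin (-0.63 ± 0.09) and Tnks (-0.53 ± 0.12), an enzyme that marks Axin for destruction. No ligand of the 14 passed. Leaving out 1 array gave 13 to 17 genes of the 106 in both directions together.

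With ICRF-193 at TN day 5, 3 of the 106 genes passed as higher and 8 as lower, 10.4% beside 8.89% of all genes, so their share was near the background. All 3 glypicans that passed were lower, Gpc3 by most (-2.44 ± 0.39, limma adjusted p = 0.000226), then Gpc6 (-1.45 ± 0.35) and Gpc4 (-1.24 ± 0.33). The feedback inhibitor Apcdd1 (-1.09 ± 0.31) and Tle4 (-0.89 ± 0.15) were lower as well, and Fgf18 (0.86 ± 0.12), Tle3 (0.53 ± 0.14) and Tle2 (0.37 ± 0.11) were higher. Of 11 alternative settings, Gpc3 passed under all, Tle4 and Fgf18 under 10, Gpc6 under 9, Gpc4 and Apcdd1 under 7, Tle3 (limma adjusted p = 0.019) under 5 and Tle2 (limma adjusted p = 0.042) under 4. Without DMSO array 2, 3 of the 106 genes passed in all. In cortical neurons 13 passed as higher and 13 as lower, 24.5% where 23.4% of all genes passed, so their share was near the background, and leaving out 1 array gave 15 to 16 in both directions together. Rspo2 was lower by the largest amount (-1.70 ± 0.14, limma adjusted p = 1.2e-08), followed by Gpc3 (-1.20 ± 0.32), the secreted Dkk3 (-1.16 ± 0.20), Gpc6 (-1.01 ± 0.29) and the receptor Fzd9 (-0.93 ± 0.14). Wls, the carrier that Wnt ligands need for secretion, was higher by 1.09 ± 0.23 (limma adjusted p = 0.0012), as were Rspo3 (1.08 ± 0.36), Tnks (0.56 ± 0.12), Tle2 (0.54 ± 0.09) and Ror2 (0.53 ± 0.18), a receptor of Wnt5a. Under 13 alternative settings Rspo3 (limma adjusted p = 0.0348) passed in 7 and Ror2 (limma adjusted p = 0.0381) in 6; with median centring neither passed.

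**Figure D4:**
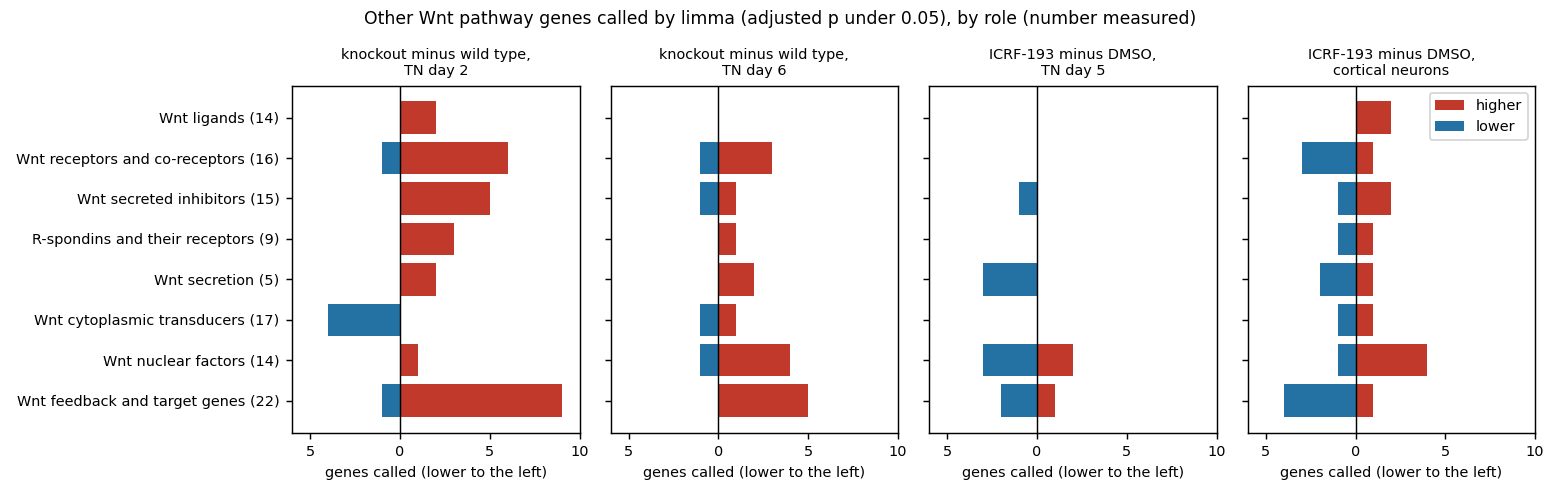
Number of other Wnt pathway genes that passed a limma adjusted p of 0.05 (horizontal axis, higher to the right and lower to the left) by role (vertical axis, number measured in brackets) in the comparisons shown. At TN day 2, 6 of 16 receptors and 9 of 22 feedback and target genes are higher and 4 of 17 cytoplasmic transducers are lower.

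The same lists were followed through the wild type steps. From ES cells to progenitors 37 of 106 passed as higher, with Lgr5 (3.92 ± 0.38), a receptor of R-spondins, and Fzd3 (3.08 ± 0.14) first, and 24 as lower (57.5% in all, beside 46.3% of all genes), with Cd44 (-2.55 ± 0.38) and Wnt8a (-2.49 ± 0.17) first. From progenitors to TN day 2, 14 passed as higher and 44 as lower (54.7% beside 48.2%), and the median difference was -0.34 where that of all genes was -0.09. Apc2 (2.69 ± 0.15) rose most, and Fzd7 (-2.71 ± 0.24), the repressor Tcf7l1 (-2.52 ± 0.15) and Lgr5 (-2.18 ± 0.38) were among those that fell most. From TN day 2 to TN day 6, 11 passed as higher, led by Dvl1 (0.81 ± 0.09), and 23 as lower, led by Ccnd1 (-2.59 ± 0.19) and Gpc3 (-2.36 ± 0.35), in all 32.1% beside 28.5%. With both directions together the share was above the background from ES cells to progenitors and closer to it in each later step. The counts by direction did not all lie near their background. From ES cells to progenitors, 37 higher and 24 lower stand beside 21.7% and 24.5% of all genes. From progenitors to TN day 2, 14 higher and 44 lower stand beside 21.6% and 26.6%. From TN day 2 to TN day 6, 23 lower stand beside 11.9% of all genes.

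The genes most like each of the 10 genes were found by Pearson correlation of the 12 group means, over 11086 genes whose means span at least 1 log2 unit; the values share arrays and are a description. Closest to Lef1 were Msrb3 (0.982), Lrrn4 (0.979) and Tln1 (0.978), and closest to Wnt1 were Ildr2 (0.964), Crb2 (0.964) and Upk3b (0.963). Sfrp1 was most like Cpd (0.957), Cyp39a1 (0.951) and Mast4 (0.946), and Sfrp2 most like Pdpn (0.879), Spata13 (0.866) and Nes (0.863). For Frzb they were 9130023H24Rik (0.936), Cdc25b (0.926) and Stk32a (0.924), and for Axin2 Nsmaf (0.913), Galnt7 (0.906) and Zgrf1 (0.903). Wnt5a came with Ier5 (0.914), Masp1 (0.865) and Tmx3 (0.861). Wnt7a and Wnt7b were each other's closest gene, at 0.884, with Paqr8 (0.868) next for Wnt7a and Ttyh1 (0.798) next for Wnt7b. Wnt3a, whose own means span less than 1 log2 unit, had Pias1 (0.824) first. Among the 10 genes themselves, the next most alike pairs were Sfrp1 with Wnt1 (0.849), Sfrp2 with Frzb (0.822) and Axin2 with Lef1 (0.774), and the least alike were Wnt7a and Axin2 (-0.629).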

How the data were processed

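The authors deposited log2 values of 35556 probe sets on 28 arrays. The submitters' processing notes name oligo 1.14.0. How probes were summarized and background corrected, and the log base, is not given in the sources used here. Base 2 was read from the range of 1.963 to 13.99. The number of arrays sets the precision. Probe sets with 1 symbol (21789) were kept, several symbols (1621) or none (12146) left out, and the highest mean was taken per gene, giving 19938 genes. Group means of all 12 groups were fitted with limma 3.58.1 in R 4.3.3 (16 residual degrees of freedom), with Benjamini-Hochberg adjustment over all genes of each of 13 contrasts, two-sided, and a threshold of 0.05; "passed" means an adjusted p below it. On simulated data the fit recovered 89% of 2-fold changes at TN day 2. The simulated noise was independent between genes, with the same spread in all groups. It held no shift shared by many genes of an array, such as the mesenchymal split of the wild type TN day 2 pair, so recovery in the real arrays may differ. The 10 genes and all lists were chosen with earlier results of these data known. All 10 genes are described in every comparison. Absence of overlap between arrays is a description of single genes, not a test. Its share over all genes is given only for the knockout comparisons in ES cells, progenitors and TN day 2. In each of the other comparisons of 2 groups it held for 6 to 8 of the 10 genes. Of the other pathway genes, up to 5 higher and 5 lower with the largest differences among those past the threshold are candidates for naming, and for each of the 10 genes the 3 most correlated genes. All 10 genes had a mean over arrays above the 30th percentile (5.56), Wnt1 only through the 3 groups where it was high, since its other 9 group means lay below. The closing section gives the alternatives.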

Additional observations from a re-analysis of the deposited data

Results flagged for a closer look

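For 10 results the effect of the knockout or of the drug differed between stages or preparations by a test of the difference itself (limma, adjusted over all genes). The knockout difference changed from progenitors to TN day 2 by 2.95 for Wnt1, 1.72 for Lef1 and -1.18 for Sfrp2. From TN day 2 to TN day 6 it changed by 4.43 for Sfrp2, 2.92 for Wnt7a, 2.67 for Wnt7b, -1.40 for Axin2, -2.43 for Lef1 and -2.75 for Wnt1. Both sets use the same 4 arrays of TN day 2. The effect of ICRF-193 on Wnt5a differed by 2.39 between cortical neurons and neurons of TN day 5. This Wnt5a result passed under 7 of 17 alternative settings. The changes of Lef1 and Sfrp2 from progenitors to TN day 2 passed under 8 of 16 each, and the rest under all of theirs. No explanation was weighed.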

How the results depend on the processing

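Over the 130 log2 differences of the 10 genes, 42 passed the test and 23 of these passed under every alternative; 63 passed under none, and no called difference changed sign, while 59 of 1135 pairs of uncalled values did. A fit of only the arrays compared gave 2 of the 10 genes at TN day 2 (7 with all arrays), 1 for the change of the knockout difference from progenitors to TN day 2 (3) and 2 for the difference of the drug effects (1), which was also 2 after quantile normalization; the cause was not tested. Of all genes, that fit called 0 in ES cells (70), 201 in progenitors (125), 315 at TN day 2 (2284), 385 at TN day 5 (1772), 7960 in cortical neurons (4664), 0 for the change of the knockout difference from ES cells to progenitors (51) and 188 for that from progenitors to TN day 2 (541). Of the other Wnt genes it called 0 in ES cells (1), 2 at TN day 2 (30), 32 at TN day 6 (20), 3 at TN day 5 (11) and 49 in cortical neurons (26). Array weights gave, for all genes, 0 in ES cells, 251 in progenitors, 3816 at TN day 6 (2030), 742 at TN day 5, 8967 in cortical neurons, 0 for the change from ES cells to progenitors and 1555 for that from TN day 2 to TN day 6 (957), and for the other Wnt genes 0 in ES cells, 35 at TN day 6, 6 at TN day 5 and 48 in cortical neurons. Beside the counts of 0 by limma stand 2995 genes with an unadjusted p under 0.05 in ES cells and 2015 for the change from ES cells to progenitors, both in the fit of all arrays. Leaving out dim genes gave 17 genes in ES cells.

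Leaving out 1 array at a time gave these ranges for the 10 genes: 0 to 5 in ES cells, 3 to 8 at TN day 2, 2 to 4 at TN day 6, 1 to 2 at TN day 5, 2 to 3 in cortical neurons, 3 to 5 from TN day 2 to TN day 6 in wild type, 3 to 6 from progenitors to TN day 2 in wild type, 0 to 2, 1 to 5 and 6 to 7 for the changes of the knockout difference from ES cells to progenitors, to TN day 2 and to TN day 6, and 0 to 0 for the difference of the drug effects. For all genes the ranges were 5 to 5018 in ES cells, 37 to 72 in progenitors, 504 to 2364 at TN day 2, 684 to 2291 at TN day 5, and 17 to 3172, 112 to 850 and 389 to 1425 for the 3 changes. For the other Wnt genes they were 0 to 50 in ES cells, 1 to 3 in progenitors, 7 to 33 at TN day 2, 13 to 17 at TN day 6, 3 to 15 at TN day 5 and 15 to 16 in cortical neurons. The top of each ES range is the fit without knockout array 2. Where a pair loses an array, the lone array is assumed to vary like the other groups.

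Replicate numbers did not pair the arrays alike in all comparisons. Deviations of same-numbered arrays correlated at 0.379 at TN day 5, 0.137 at TN day 2 and -0.23 in progenitors. In ES cells, at TN day 6 and in cortical neurons the correlations lay between -0.062 and 0.071. With the replicate number as a block, 7 of the 10 genes passed at TN day 2, 5 at TN day 6, 2 at TN day 5 and 4 in cortical neurons, the same counts as without it; 6 passed from TN day 2 to TN day 6 in wild type, with Frzb added (adjusted p = 0.0325), and 4 for the change from progenitors to TN day 2, with Axin2 added (adjusted p = 0.0269). Crossing the numbers in progenitors, an alternative chosen after seeing the data, gave 0 of the 10 genes in progenitors and 4 for that change.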
